A study of Mus musculus with 19 samples.

Results

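The 46 genes described here are interferon response genes and genes of the immunoproteasome, the form of the proteasome that immune signals bring up. They were chosen by symbol from a list of names, and all 46 were found among the 25124 genes of the deposited exon count table. The list was made with earlier results of these data known. Classical MHC genes and Tap genes were left out of that list. All 46 passed the filter on low counts, which kept 14736 genes. By role, they comprised 4 transcription factors, 15 antiviral effectors, 4 sensors of RNA and DNA, 7 genes of the ISG15 and ubiquitin system, 6 GTPases, 5 immunoproteasome genes and 5 other interferon response genes.

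The series set blood progenitors of the fetal liver against those of the adult bone marrow under a title on emergency platelet formation by stem cells. All groups were C57BL/6 mice, and the labels name neither an altered allele nor a treatment. Adult cells came from bone marrow at 12 weeks of age and fetal cells from liver at E14.5. Hematopoietic stem cells (HSC) were sorted as c-Kit+ Sca-1+ CD150+ cells without CD48 and Flt3, and lymphoid-primed multipotent progenitors (LMPP) as c-Kit+ Sca-1+ CD48+ Flt3+ cells without CD150. Both gates removed dead cells and cells with CD3, Gr1, B220 or Ter119, and the adult gates also removed CD11b+ cells. Whether the fetal gates did so is not stated. RNA-seq gave 3 libraries for each group but fetal HSC, which had 2, with totals of 19.8 to 64.8 M counts. ATAC-seq, in which a transposase marks open chromatin, gave 1 list of reproducible peaks for each of these groups. The labels do not tie replicates to separate animals or pools, so the p-values below measure the spread between these libraries, which may be technical.

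Interferons are secreted proteins that cells release on sensing viruses or other threats. Type I interferons signal through a receptor with the kinases Jak1 and Tyk2 to a complex that holds Stat2 and Irf9 and binds the interferon-stimulated response element (ISRE). Interferon gamma acts through Jak1 and Jak2 on genes with the gamma-activated site (GAS), and Irf1 carries part of that response onward. Stem and progenitor cells are known to hold a basal level of interferon-stimulated genes, and interferon can bring resting HSC into cycle.

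The promoters of the members were searched for the cores of both elements on both strands, from 250 bases before to 50 bases after each start. The ISRE core was taken as GAAA, any 2 bases and GAAA again, and the GAS core as TTCNNNGAA, which reads the same on both strands. RefSeq promoters (GRCm38.p6) were at hand for 36 of the 46 members. The ISRE core was present in 17 of them (47.2%), against 3.99% of the 27025 genes in the promoter table and 3.44% of its 32851 promoters. The GAS core was present in 9 (25.0%), against 9.55% of genes and 8.30% of promoters. Matches of the different cores overlapped in 2 promoters, those of Bst2 and Ifitm3. A match is a string of letters and does not show that a factor binds there. The 120 bases before the start are shown for 4 members whose RNA is described below and whose promoters hold a GAS core, an ISRE core or both, in lower case with the matches in capitals, 5′ to 3′ on the plus strand. They lie at chr11:53769894-53770013 (Irf1), chr17:34198075-34198194 (Psmb8), chr3:142620543-142620662 (Gbp2) and chr11:58199436-58199555 (Igtp).
Irf1: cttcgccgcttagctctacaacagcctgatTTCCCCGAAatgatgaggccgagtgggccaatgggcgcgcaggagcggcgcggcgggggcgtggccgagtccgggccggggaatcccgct
Psmb8: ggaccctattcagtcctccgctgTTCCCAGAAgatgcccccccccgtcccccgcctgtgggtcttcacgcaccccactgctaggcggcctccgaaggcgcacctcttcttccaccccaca
Gbp2: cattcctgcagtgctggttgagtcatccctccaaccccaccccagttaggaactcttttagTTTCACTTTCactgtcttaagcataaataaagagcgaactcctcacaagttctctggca
Igtp: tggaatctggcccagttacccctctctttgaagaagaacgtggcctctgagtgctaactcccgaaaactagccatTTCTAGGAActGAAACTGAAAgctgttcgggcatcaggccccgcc
Irf1 and Psmb8 show a GAS core, Gbp2 shows the ISRE core on the other strand, and Igtp shows a GAS core followed by an ISRE core. Among the members in the promoter table, 9 of 20 that were called lower in fetal LMPP held the ISRE core, as did 8 of 16 that were not called there.

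The libraries parted by cell type on the first principal component of log2 expression (43.0% of the variance) and by age on the second (23.2%). On the third (10.4%), adult HSC 3, fetal LMPP 1 and adult LMPP 3 stood apart from the rest of their groups, at −89.2, −57.5 and −24.4. Genes with longer exon models read low in adult HSC 3, by a median of −0.29 on the log2 scale against their group, and shorter ones read high by 0.29. In adult LMPP 3 these medians were −0.21 and 0.20. HSC markers summed to 1327 to 1603 CPM (counts scaled to a common library total) in adult HSC and 1247 to 1447 in fetal HSC, and to 146 to 220.4 in adult and 280.4 to 423 in fetal LMPP. Markers of LMPP summed to 2850 to 3289 CPM in adult LMPP and to 1110 to 1132 in fetal LMPP, where Dntt, the lymphoid enzyme terminal transferase, was at 0. In HSC they summed to 23.4 to 36.0 CPM in adult and 89.2 to 89.8 in fetal libraries.

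Every member that passed the test between fetal and adult cells was lower in the fetal cells, in HSC and in LMPP. Calls were made with edgeR's quasi-likelihood test over all genes, at p under 0.05 after Benjamini-Hochberg adjustment, and this test gives every adjusted p below unless DESeq2 is named. Because the list was chosen with earlier results of these data known, its shares beside those of all genes are description and no test of the list. In HSC, 14 of 46 members were called lower in fetal cells, where 2.9% of all genes were called lower. None was called higher, where 2.07% of all genes were, and none was higher at an unadjusted p under 0.05 in edgeR. DESeq2 called 17 members lower in HSC (6.12% of all genes) and 0 higher (4.54% of all genes). In LMPP, 25 of 46 members were called lower (8.27% of all genes) and none higher (7.06% of all genes), with 1 higher at an unadjusted p under 0.05. That gene was Samhd1, a dNTP hydrolase that restricts viruses, which DESeq2 called higher at 0.71 (adjusted p = 0.0474), as it did 10.8% of all genes, and it called 34 members lower (12.3% of all genes). The median log2 difference of the members was −0.55 in HSC and −1.08 in LMPP, and that of all genes was 0 in both. The fetal value was negative for 39 of 46 members in HSC and for 42 of 46 in LMPP. Every fetal library lay below every adult library for 23 members in HSC (20.3% of all genes) and for 36 in LMPP (16.9% of all genes). The opposite held for 1 member in HSC, Trim25 (20.8% of all genes), and 1 in LMPP, Samhd1 (17.8% of all genes). Since these are bulk samples, fewer cells of a type and less RNA per cell cannot be told apart.

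**Figure D1:**
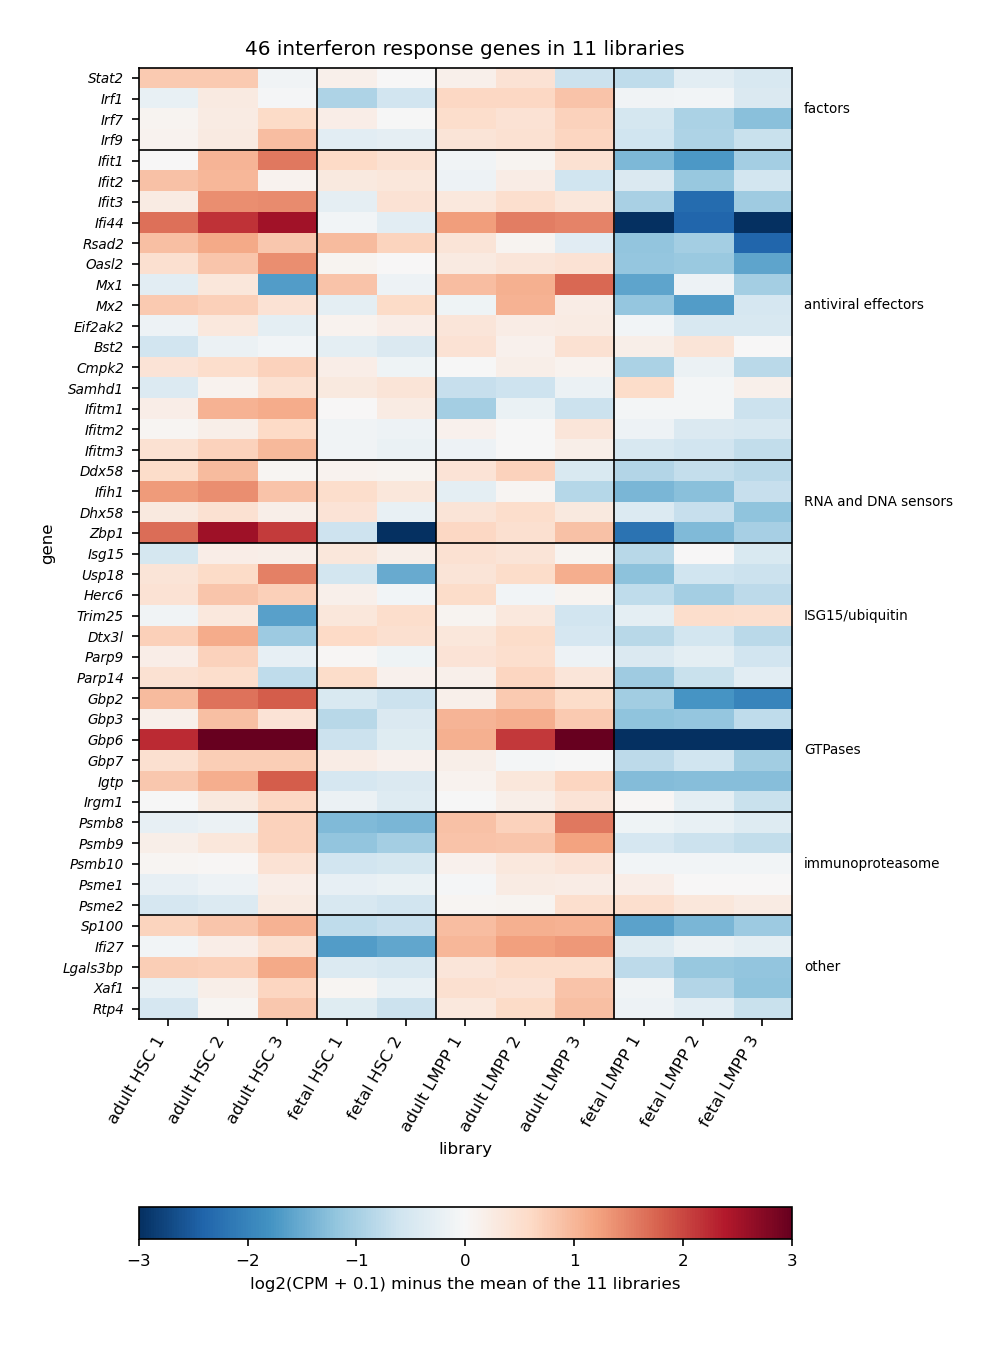
Each row is 1 of the 46 genes, grouped by role, and each column 1 of the 11 libraries; colour is log2(CPM + 0.1) minus the gene's mean over the libraries, and colours are saturated beyond −3 and 3. Ifi44 and Gbp6 are lowest in the 3 fetal LMPP libraries, and Psmb8 and Ifi27 are lowest in fetal HSC.

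Of the called members, 13 were lower in both cell types, which is 13 of the 14 called in HSC and 13 of the 25 called in LMPP. Of all genes, 1.86% were called lower in both. They were Ifi44, Ifitm3, Zbp1, Usp18, Gbp2, Gbp3, Gbp6, Igtp, Psmb8, Psmb9, Sp100, Ifi27 and Lgals3bp. Psmb10 was called in HSC alone. Another 12 were called in LMPP alone: Irf1, Irf7, Irf9, Ifit1, Ifit3, Rsad2, Oasl2, Ddx58, Dhx58, Herc6, Gbp7 and Xaf1. The remaining 20 passed the threshold in neither. A call in 1 cell type alone does not show that the types differ, and the test of that difference is given further on. The HSC calls of Psmb9, Sp100, Ifi27 and Lgals3bp held under every alternative setting, and the other 10 did not. When only the HSC groups were fitted, the HSC calls of Ifitm3, Zbp1, Usp18, Gbp3, Psmb8 and Psmb10 were lost. With the replicate number as a block, those of Ifi44, Zbp1, Usp18, Gbp3, Gbp6 and Psmb10 were lost. In LMPP, 17 of the 25 calls held under every alternative. Fetal HSC had 2 libraries, and a fit without either one leaves a lone library that is assumed to vary like the other groups.

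**Figure D2:**
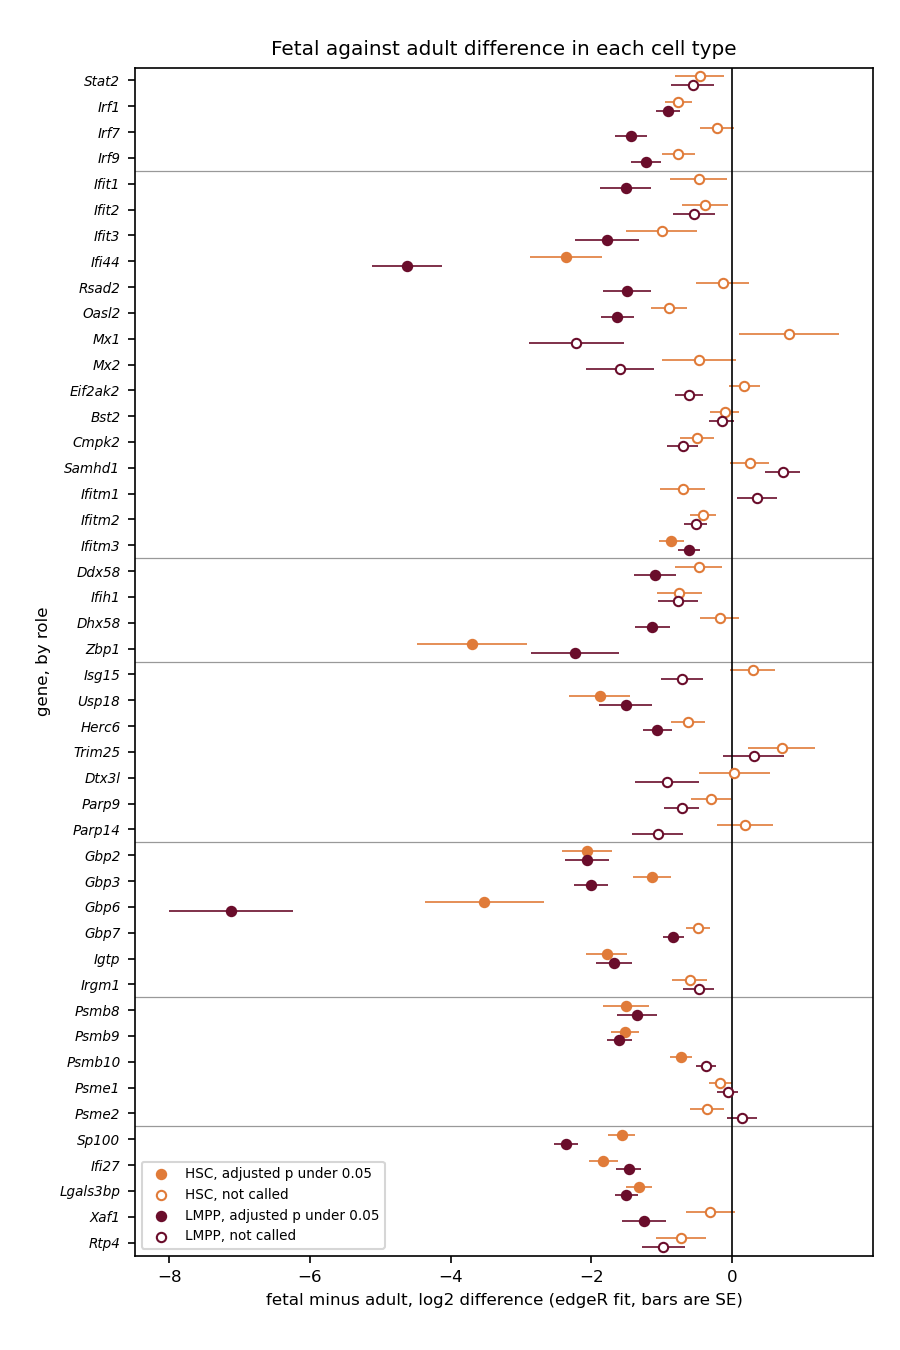
Points are fetal minus adult log2 differences from the edgeR fit in HSC (orange) and LMPP (dark red), with bars of ±1 SE; filled points have an adjusted p under 0.05. Points lie left of 0 for 39 of 46 genes in HSC and 42 of 46 in LMPP, and Gbp6 and Ifi44 in LMPP lie farthest, at −7.13 and −4.62.

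Of the 4 HSC calls that held under every alternative, 3 belonged to the 5 other interferon response genes. Sp100 encodes a core protein of PML nuclear bodies, at chr1:85649988-85709997 (mm10, as all gene positions here). It stood at 127, 142 and 164 CPM in the 3 adult HSC libraries and at 47.3 and 49.6 in the 2 fetal ones. In LMPP its values were 151, 168 and 165 CPM in adult and 26.2, 30.8 and 37.4 in fetal libraries. All fetal values lay below all adult values. The log2 difference was −1.57 ± 0.19 (SE, adjusted p = 0.00102) in HSC and −2.36 ± 0.17 (adjusted p = 2.53e-05) in LMPP, the lowest adjusted p of any member there.

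Ifi27, a small membrane protein of the interferon response (chr12:103434189-103440245), read 58.5, 70.8 and 85.8 CPM in adult HSC and 19.3 and 20.9 in fetal HSC. In LMPP it read 123, 145 and 154 CPM in adult and 47.0, 54.9 and 50.2 in fetal libraries. It was thus higher in LMPP than in HSC at each age and lower in fetal cells of each type, with no overlap in any of these comparisons. The fetal difference was −1.83 ± 0.20 (adjusted p = 0.000618) in HSC and −1.47 ± 0.17 (adjusted p = 0.000527) in LMPP.

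Lgals3bp encodes a secreted galectin-binding glycoprotein (chr11:118392747-118401959) and had the highest level per kilobase of exon among these 5 other genes, 171 CPM per kilobase on average in adult HSC. Its libraries stood at 342, 337 and 448 CPM in adult HSC, 153 and 146 in fetal HSC, 263, 297 and 295 in adult LMPP, and 119, 93.0 and 89.6 in fetal LMPP. Fetal values were below adult ones throughout, by −1.33 ± 0.18 (adjusted p = 0.00204) in HSC and −1.51 ± 0.16 (adjusted p = 0.000291) in LMPP. Xaf1, which antagonises the apoptosis inhibitor XIAP, was called in LMPP (−1.25 ± 0.31, adjusted p = 0.0228), but not without adult LMPP 3, fetal LMPP 2 or fetal LMPP 3 (0.0621 to 0.0878). Rtp4, an interferon-induced chaperone of receptors, had −0.73 ± 0.35 in HSC and −0.98 ± 0.31 in LMPP and was called in neither by edgeR. By DESeq2, all 5 of these other genes were called lower in fetal LMPP (12.3% of all genes) and 3 in fetal HSC (6.12%).

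**Figure D3:**
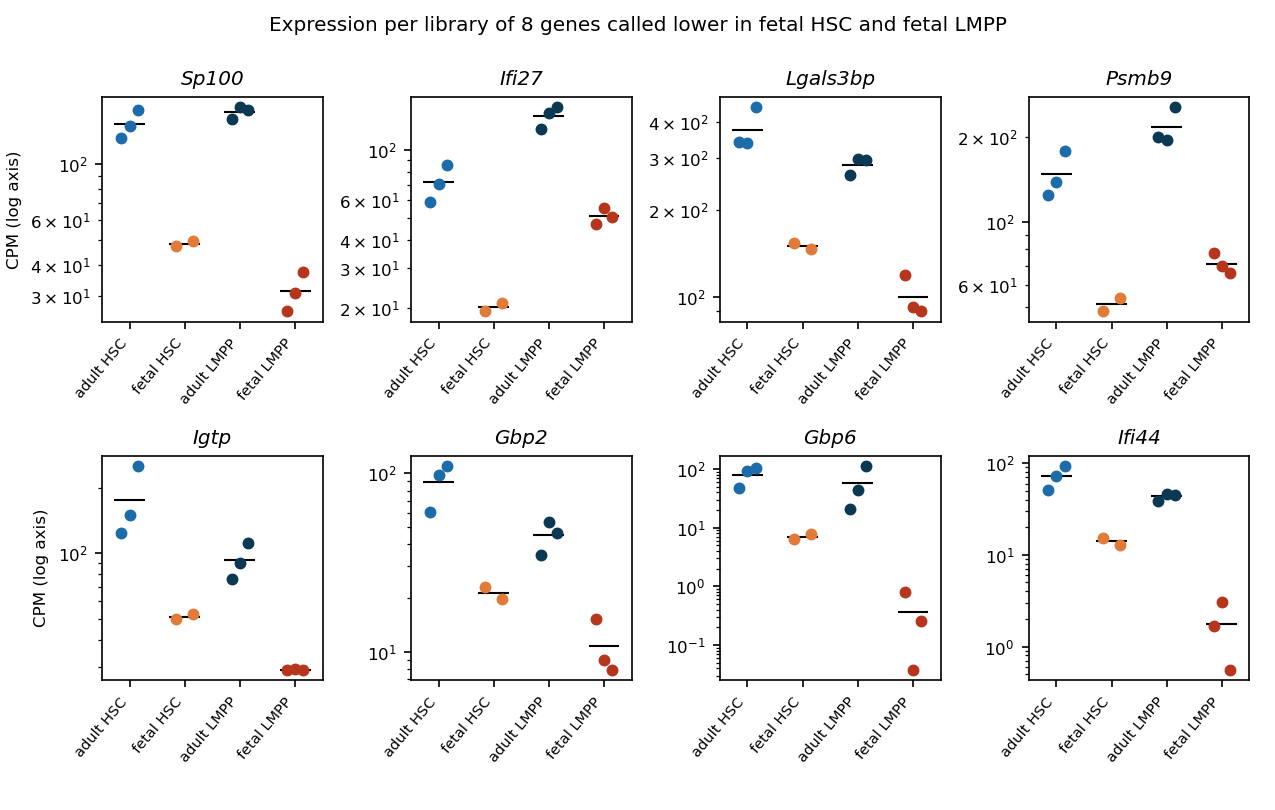
Each point is 1 library's CPM on a log axis for 8 genes called lower in both fetal cell types, and each bar is the mean of a group. Fetal points lie below adult points of the same cell type in every panel, and the fetal LMPP points of Gbp6 reach 0.037 CPM.

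Among the 6 GTPases, which act on membranes around intracellular pathogens, 4 were called lower in fetal HSC and 5 in fetal LMPP. Gbp2, a guanylate-binding protein (chr3:142620663-142638008), read 60.7, 97.4 and 109 CPM in adult HSC and 22.9 and 19.8 in fetal HSC. In LMPP it read 35.0, 53.6 and 45.9 CPM in adult and 15.2, 9.02 and 7.86 in fetal libraries. The difference was of like size in both, at −2.06 ± 0.36 (adjusted p = 0.00805) and −2.06 ± 0.31 (adjusted p = 0.0019).

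Igtp, an immunity-related GTPase also called Irgm3 (chr11:58199556-58207592), stood at 125, 151 and 252 CPM in adult HSC and 49.8 and 52.4 in fetal HSC. Its LMPP values were 76.6, 90.6 and 112 CPM in adult and 28.9, 29.2 and 29.1 in fetal libraries, which is the narrowest spread of any group for this gene. The log2 differences were −1.78 ± 0.29 (adjusted p = 0.00531) in HSC and −1.68 ± 0.25 (adjusted p = 0.00181) in LMPP.

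Gbp6 (chr5:105270702-105293699) had the widest range of any member on the log scale. It read 46.9, 91.4 and 102 CPM in adult HSC, 6.29 and 7.65 in fetal HSC, 20.9, 43.6 and 111 in adult LMPP, and 0.80, 0.037 and 0.255 in fetal LMPP. The value of 0.037 CPM is under 3 counts of that library, a floor that covers no error but that of counting, as the PCR copies carried no molecular identifiers. The differences were −3.52 ± 0.85 (adjusted p = 0.0402) in HSC and −7.13 ± 0.88 (adjusted p = 0.000678) in LMPP. Gbp6 has a close copy, Gbp10, and reads can be split between such copies, so its single values are uncertain.

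Gbp3 read 38.4, 64.2 and 45.7 CPM in adult HSC against 19.3 and 25.5 in fetal HSC, and 70.1, 73.5 and 59.3 in adult LMPP against 14.8, 15.4 and 20.4 in fetal LMPP. It was lower by −1.14 ± 0.27 (adjusted p = 0.0356) and by −2.00 ± 0.24 (adjusted p = 0.000549). Gbp7 was called in LMPP only (−0.84 ± 0.15, adjusted p = 0.00521), with −0.48 ± 0.17 in HSC. Irgm1, the GTPase with the highest level per kilobase, was called in neither: its libraries read 129, 158 and 200.2 CPM in adult HSC, 115 and 98.6 in fetal HSC, 128, 147 and 171 in adult LMPP, and 133, 105 and 81.7 in fetal LMPP. The 4 HSC calls of this family were lost without fetal HSC 1 or without fetal HSC 2, at adjusted p of 0.079 to 0.121 for Gbp2 and 0.0765 to 0.0775 for Igtp. That of Gbp3 was also lost without adult HSC 2, adult LMPP 1 or 2 or fetal LMPP 2 (up to 0.334), and that of Gbp6 without any adult HSC library, adult LMPP 2 or fetal LMPP 3 (up to 0.314).

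Of the 15 antiviral effectors, 2 were called lower in fetal HSC and 6 in fetal LMPP. Ifi44, an antiviral protein of the interferon response (chr3:151730923-151749910), read 50.8, 72.6 and 92.6 CPM in adult HSC and 15.2 and 12.8 in fetal HSC. In LMPP it read 38.4, 46.7 and 45.2 CPM in adult libraries and 1.69, 3.03 and 0.552 in fetal ones. The fetal value was 5.13-fold lower in HSC (log2 −2.36 ± 0.51, adjusted p = 0.0259) and 24.6-fold lower in LMPP (−4.62 ± 0.50, adjusted p = 0.000314). Its HSC call was lost without either of the 2 fetal HSC libraries or without adult HSC 2, at adjusted p of up to 0.248.

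Ifitm3, a membrane protein that blocks viral entry, had the highest level per kilobase of all 46 members over all libraries (629 CPM per kilobase, with 623 for Ifitm2), and 969 CPM per kilobase in adult HSC on average. Its libraries read 518, 613 and 740.5 CPM in adult HSC, 354 and 331 in fetal HSC, 342, 376 and 432 in adult LMPP, and 272, 254 and 227 in fetal LMPP. No fetal library reached an adult one, yet the differences were modest, at −0.87 ± 0.18 (adjusted p = 0.0176) and −0.61 ± 0.15 (adjusted p = 0.0233). The HSC call was lost without fetal HSC 1 or fetal HSC 2 (up to 0.2), and the LMPP call without adult LMPP 2 or 3 or fetal LMPP 2 or 3 (0.0541 to 0.0863). The Ifitm genes resemble each other, so reads may be shared among them.

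The RNA-binding Ifit1 and Ifit3, the radical SAM enzyme Rsad2 (viperin) and the oligoadenylate synthetase-like gene Oasl2 were called in LMPP and not in HSC. Oasl2 read 81.3, 85.9 and 90.9 CPM in adult LMPP and 29.9, 31.0 and 22.3 in fetal LMPP (−1.63 ± 0.23, adjusted p = 0.00128), with −0.90 ± 0.26 in HSC (adjusted p = 0.0775). The values in LMPP were −1.51 ± 0.36 for Ifit1, −1.78 ± 0.45 for Ifit3 and −1.50 ± 0.34 for Rsad2, at adjusted p of 0.0193, 0.025 and 0.0156. Each of these 3 calls was lost without at least 1 library. Those libraries were adult LMPP 3, fetal LMPP 1 and fetal LMPP 2 for Ifit1 (0.051 to 0.0782), adult LMPP 1 and 2 and fetal LMPP 2 and 3 for Ifit3 (0.0524 to 0.0695), and adult LMPP 1 for Rsad2 (0.0576). Ifit3 has a near copy, Ifit3b. The other 9 effectors (Ifit2, Mx1, Mx2, Eif2ak2, Bst2, Cmpk2, Samhd1, Ifitm1 and Ifitm2) were called in neither cell type, and their values ran from −0.70 to 0.81 in HSC and from −2.21 to 0.72 in LMPP. Mx1 was scarce, at 0.399 to 5.11 CPM over all libraries.

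Among the 4 transcription factors, none was called in HSC (2 lower at an unadjusted p under 0.05, and 2 lower by DESeq2), and Irf1, Irf7 and Irf9 were called lower in fetal LMPP. Irf1, the highest of them per kilobase, read 106, 148 and 121 CPM in adult HSC, 64.8 and 82.4 in fetal HSC, 191, 191 and 224 in adult LMPP, and 114, 116 and 91.2 in fetal LMPP. Fetal libraries lay below adult ones in both cell types. The differences were −0.77 ± 0.20 in HSC (adjusted p = 0.0528) and −0.92 ± 0.17 in LMPP (adjusted p = 0.0062).

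Irf7, the factor that drives type I interferon genes, read 32.5, 36.0 and 45.2 CPM in adult HSC and 34.8 and 30.4 in fetal HSC, which overlapped. In LMPP it read 44.3, 41.4 and 49.2 CPM in adult and 21.3, 15.7 and 12.7 in fetal libraries, which did not. The differences were −0.22 ± 0.25 in HSC (adjusted p = 0.724) and −1.44 ± 0.22 in LMPP (adjusted p = 0.00229). Irf9, the DNA-binding part of the type I complex, had −0.77 ± 0.24 (adjusted p = 0.104) and −1.23 ± 0.21 (adjusted p = 0.00383). Stat2, its partner, had −0.46 ± 0.35 and −0.56 ± 0.31 and overlapped between fetal and adult libraries in both.

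All 4 sensors had negative values in both cell types, with 1 called in HSC and 3 in LMPP. Zbp1, which recognises Z-form nucleic acid and can start cell death, read 9.48, 17.6 and 12.8 CPM in adult HSC and 1.85 and 0.244 in fetal HSC. In LMPP it read 4.55, 4.15 and 5.47 CPM in adult and 0.551, 1.11 and 1.40 in fetal libraries. The differences were −3.70 ± 0.78 (adjusted p = 0.0211) and −2.23 ± 0.62 (adjusted p = 0.0367). In HSC the value moved to −5.75 without fetal HSC 1 (adjusted p = 0.00982), and the call was lost without adult HSC 2 or without fetal HSC 2 (up to 0.0895). The LMPP call was lost without adult HSC 2 and without any 1 of the 6 LMPP libraries (0.0524 to 0.105).

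Dhx58 (LGP2), a regulator of the RNA sensors and the highest of this group per kilobase, read 41.6, 46.9 and 38.6 CPM in adult HSC, 45.7 and 29.1 in fetal HSC, 44.7, 49.4 and 41.6 in adult LMPP, and 25.9, 21.1 and 14.7 in fetal LMPP. The groups overlapped in HSC (−0.18 ± 0.27) and were apart in LMPP (−1.13 ± 0.24, adjusted p = 0.0118). Ddx58, which encodes the RNA sensor RIG-I, was called in LMPP (−1.10 ± 0.30, adjusted p = 0.0332), but not without fetal HSC 1 or 2, adult LMPP 1 or 2 or any fetal LMPP library (0.0564 to 0.111). Ifih1, which encodes the RNA sensor MDA5, had like values of −0.75 ± 0.32 and −0.77 ± 0.28 and was called in neither by edgeR. By DESeq2, all 4 sensors were called lower in fetal LMPP (12.3% of all genes) and 1 in fetal HSC (6.12%).

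In the ISG15 and ubiquitin system, Usp18 was called in both cell types and Herc6 in LMPP by edgeR. By DESeq2, 4 of these 7 genes were called lower in fetal LMPP (12.3% of all genes) and 1 in fetal HSC (6.12%). Usp18 removes ISG15 from proteins and restrains the type I receptor. It read 29.7, 34.0 and 65.3 CPM in adult HSC, 15.5 and 7.85 in fetal HSC, 29.5, 33.4 and 48.5 in adult LMPP, and 9.67, 14.9 and 14.4 in fetal LMPP. The differences were −1.89 ± 0.44 (adjusted p = 0.0346) and −1.52 ± 0.37 (adjusted p = 0.0215). The HSC call was lost without adult HSC 2 or 3, fetal HSC 1 or 2, adult LMPP 2 or fetal LMPP 3 (up to 0.323), and the LMPP call without adult LMPP 3 or any fetal LMPP library (up to 0.0667).

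Herc6, the main mouse ligase for ISG15, had −1.06 ± 0.21 in LMPP (adjusted p = 0.00782). Isg15 itself, the ubiquitin-like modifier, read 6.97, 11.5 and 11.3 CPM in adult HSC, 12.8 and 11.5 in fetal HSC, 13.8, 13.3 and 10.6 in adult LMPP, and 5.58, 10.2 and 7.31 in fetal LMPP, and was called in neither comparison. Parp9, the highest of this group per kilobase, read 61.8, 86.9 and 45.9 CPM in adult HSC, 55.8 and 49.6 in fetal HSC, 72.2, 76.2 and 48.5 in adult LMPP, and 39.7, 44.0 and 36.1 in fetal LMPP. It shares 558 bases with Dtx3l, its partner ligase on the opposite strand, and the protocol does not keep strand, so reads there cannot be told apart. Trim25, Dtx3l and Parp14 were also not called, and their adult HSC 3 values lay below those of adult HSC 1 and 2.

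The 5 immunoproteasome genes split by function. The catalytic subunits Psmb8, Psmb9 and Psmb10 replace Psmb5, Psmb6 and Psmb7 in the proteasome core, and Psme1 and Psme2 form the PA28 activator. Psmb8 (chr17:34198195-34201454), the highest of the 5 per kilobase, read 409, 428 and 784 CPM in adult HSC, 194 and 187 in fetal HSC, 896, 777 and 1451 in adult LMPP, and 441, 411 and 368 in fetal LMPP. The third adult library was the highest in each cell type, and these are 2 of the libraries in which short genes read high. The differences were −1.50 ± 0.33 (adjusted p = 0.0259) in HSC and −1.36 ± 0.28 (adjusted p = 0.0101) in LMPP. Without the 3 libraries that stand apart both calls held, but the HSC call was lost when only the HSC groups were fitted.

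Psmb9 (chr17:34182099-34187330) read 125, 138 and 179 CPM in adult HSC, 48.3 and 53.9 in fetal HSC, 199, 196 and 254 in adult LMPP, and 77.9, 70.1 and 65.8 in fetal LMPP. Its differences were −1.53 ± 0.20 (adjusted p = 0.00155) and −1.60 ± 0.17 (adjusted p = 0.000337). Psmb10 read 133, 131 and 172 CPM in adult HSC and 86.6 and 88.8 in fetal HSC (−0.73 ± 0.16, adjusted p = 0.028), and had −0.37 ± 0.14 in LMPP (adjusted p = 0.104). The HSC calls of Psmb8 and Psmb10 were lost without fetal HSC 1 or fetal HSC 2, at adjusted p of up to 0.22 and 0.239.

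Psme1 and Psme2 were called in neither cell type. Psme1 had −0.17 ± 0.16 in HSC and −0.07 ± 0.14 in LMPP, and Psme2 had −0.36 ± 0.24 and 0.14 ± 0.21. Per kilobase they were nonetheless abundant, at 334 and 310 CPM per kilobase over all libraries, next to 475 for Psmb8.

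Transcripts were compared as the ratio of each immunoproteasome subunit to its constitutive counterpart, per kilobase of exon within a library. The exchange of protein subunits in the proteasome was not measured. The ratio of Psmb8 to Psmb5 was 1.98, 2.14 and 2.95 in adult HSC against 0.744 and 0.703 in fetal HSC, and 3.20, 2.96 and 4.05 in adult LMPP against 1.01, 1.01 and 0.971 in fetal LMPP. Adult cells thus held more Psmb8 than Psmb5 transcript per length, and fetal cells about as much or less. The ratio of Psmb9 to Psmb6 was 0.604 ± 0.163 (SD, n = 3) in adult HSC and 0.226 ± 0.0333 (n = 2) in fetal HSC, and 0.747 ± 0.135 and 0.193 ± 0.0107 in adult and fetal LMPP (n = 3 each). That of Psmb10 to Psmb7 was 1.41 ± 0.271 and 0.642 ± 0.0178 in HSC, and 1.18 ± 0.186 and 0.503 ± 0.0489 in LMPP.

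The log2 ratio was lower in fetal cells by −1.68, −1.39 and −1.12 in HSC and −1.76, −1.94 and −1.22 in LMPP, for Psmb8, Psmb9 and Psmb10 in this order. Adult and fetal libraries did not overlap in any of the 6 comparisons. An exact two-sided permutation test gave p = 0.2 in HSC and p = 0.1 in LMPP for each ratio, the smallest values these group sizes allow, and 0.2 for all after adjustment over the 6 tests, so this design cannot pass 0.05 for a single ratio. Of the constitutive subunits, Psmb7 was called higher in fetal LMPP, at 184 against 101 CPM (0.86 ± 0.13, adjusted p = 0.00184), and Psmb5 and Psmb6 were not called. The 31 other genes of the proteasome core, cap and assembly had a median of 0.05 in HSC and of 0.50 in LMPP. None was called in HSC by edgeR (2.07% of all genes higher, 2.9% lower), by DESeq2 (4.54% and 6.12%) or at an unadjusted p under 0.05 in edgeR. In LMPP 8 were called higher and none lower by edgeR (7.06% and 8.27% of all genes), and 9 and 0 by DESeq2 (10.8% and 12.3%).

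**Figure D4:**
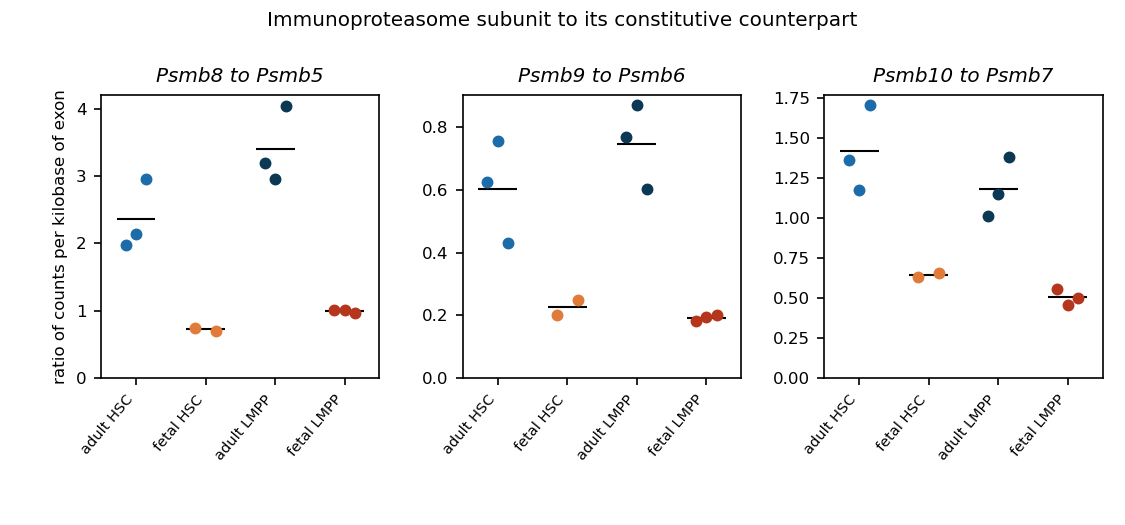
Points are the ratio, per library, of an immunoproteasome subunit to its constitutive counterpart in counts per kilobase of exon, and bars are group means. The fetal libraries lie below every adult library of the same cell type in all 3 panels, and the Psmb8 to Psmb5 ratio averages 3.40 in adult and 0.996 in fetal LMPP.

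The difference between the cell types in the fetal against adult change was tested as an interaction. It reached an adjusted p under 0.05 for no member, where 0.543% of all genes were called lower and 0.414% higher, and the lowest member value was 0.134 for Irf7. At an unadjusted p under 0.05 there were 12 members, 11 of them with the more negative value in LMPP, and 12.9% of all genes. DESeq2 called 3 members: Irf7 (−1.23, adjusted p = 0.0199), Ifi44 (−2.27, adjusted p = 0.018) and Gbp6 (−3.75, adjusted p = 0.0141), all lower, where it called 2.43% of all genes lower and 2.03% higher. Without adult HSC 3, adult LMPP 3 and fetal LMPP 1, edgeR called Irf7 (−1.52, adjusted p = 0.0115), Irf9, Oasl2, Gbp6, Sp100 and Xaf1, all lower, where 3.14% of all genes were lower and 2.26% higher. The calls on this difference thus changed with the tool and with these 3 libraries.

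Between the cell types, the members did not share a direction in adult marrow. In adult LMPP against adult HSC, 6 members were called lower (9.3% of all genes) and 5 higher (7.77% of all genes), with a member median of −0.16 and a median over all genes of −0.05. The libraries did not overlap for 12 members that were lower (18.1% of all genes) and 5 that were higher (13.7%). Higher were Irf1 (0.69 ± 0.17), Bst2 (tetherin, 0.61 ± 0.18), Psmb8 (0.95 ± 0.28), Psmb9 (0.55 ± 0.17) and Ifi27 (0.97 ± 0.17). Lower were Ifitm1 (−1.42 ± 0.28), Ifitm3 (−0.70 ± 0.15), Ifih1 (−1.52 ± 0.28), Gbp2 (−0.99 ± 0.30), Gbp7 (−0.62 ± 0.15) and Igtp (−0.92 ± 0.24). Adjusted p ran from 0.00357 for Ifi27 to 0.0485 for Psmb9. The calls of Ifi27, Ifitm1, Ifitm3 and Ifih1 held under every alternative. The call of Bst2 was lost without any single library but adult HSC 3 or adult LMPP 2, that of Psmb8 without any but adult HSC 3, adult LMPP 2 or fetal LMPP 1, that of Psmb9 without any but adult HSC 3 or fetal LMPP 1, and that of Gbp2 without any but adult HSC 1, fetal LMPP 1 or fetal LMPP 3. The highest adjusted p of these 4 over all alternatives were 0.137, 0.143, 0.161 and 0.154, and the Psmb8 value was 0.63 without adult LMPP 3. Irf1 was lost without adult HSC 1 or adult LMPP 3 (0.062 to 0.0754), Gbp7 without adult HSC 2, adult LMPP 2 or adult LMPP 3 (0.0525 to 0.0629), and Igtp without adult LMPP 1 or 2 (up to 0.0987). Without adult HSC 3 the Igtp value was −0.57. Deviations from the group mean went together in all 3 same-numbered pairs of adult HSC and LMPP libraries, and also in some pairs with different numbers. With the replicate number as a block Bst2, Gbp2 and Psmb9 were not called (adjusted p = 0.0683, 0.0791 and 0.0512), which left 3 members higher.

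In fetal LMPP against fetal HSC, 12 members were called lower (9.81% of all genes) and 3 higher (8.21% of all genes), and the member median was −0.58 against −0.08 for all genes. All LMPP libraries lay below all HSC libraries for 29 members (33.2% of all genes) and above them for 8 (27.6%). Lower were Irf7, Ifit1, Ifi44, Rsad2, Oasl2, Ifih1, Dhx58, Herc6, Gbp6, Gbp7, Sp100 and Lgals3bp. Of these, Gbp6 (−4.06 ± 0.83), Ifi44 (−2.99 ± 0.49) and Rsad2 (−2.25 ± 0.37) had the largest differences. Higher were Ifi27 (1.33 ± 0.20), Psmb8 (1.09 ± 0.32) and Psme2 (0.89 ± 0.24). The calls of Ifi44, Rsad2, Oasl2, Gbp7 and Ifi27 held under every alternative. The other 10 were lost without fetal HSC 2, which leaves a lone fetal HSC library, and 9 of those 10 also without fetal HSC 1. Dhx58, Herc6, Irf7, Lgals3bp, Psmb8, Psme2 and Sp100 were also lost without fetal LMPP 2, and without at least 1 more library in turn, and Dhx58 moved to −0.50 without fetal HSC 1. The highest adjusted p of the 10 ran from 0.0587 for Gbp6 to 0.388 for Dhx58. These comparisons share their libraries with those between fetal and adult cells.

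None of the 7 receptor and kinase genes was called in HSC (1 higher by DESeq2 and at an unadjusted p under 0.05), and in LMPP only Ifngr2, a chain of the interferon gamma receptor, was called, at 79.9 CPM in fetal against 41.0 in adult cells (0.96 ± 0.18, adjusted p = 0.00668). Irf2, a repressor of interferon genes, was called lower in LMPP (−0.66 ± 0.18, adjusted p = 0.0307). Irf4, a lymphoid factor, was at 0 in the 3 adult HSC libraries and at 0.982 and 1.44 CPM in fetal HSC, and was called higher there. None of 7 inhibitors of the pathway was called in either cell type by edgeR or DESeq2, and 1 was lower in each at an unadjusted p under 0.05. Of 10 tested sensing adaptors, Trex1, a DNase, was called lower in fetal LMPP (−0.77 ± 0.23, adjusted p = 0.0431).

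Of the interferon genes themselves, Ifnb1, Ifna1, Ifna2, Ifna4, Ifnk, Ifne, Ifng, Ifnl2 and Ifnl3 were looked up. They were at 0 in all libraries, with the exception of 0.393 CPM of Ifng in adult LMPP 3. Other interferon genes are not given here. A count of 0 allows up to 0.0499 to 0.152 CPM, depending on the library. Ly6a, which encodes the gating antigen Sca-1 and is itself interferon-inducible, read 59.6, 133 and 100.0 CPM in adult HSC and 30.0 and 31.0 in fetal HSC. It was lower in fetal HSC (30.5 against 97.5 CPM, −1.68 ± 0.36, adjusted p = 0.024) and in fetal LMPP (19.3 against 66.9 CPM, −1.79 ± 0.31, adjusted p = 0.00415).

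Markers of other cells were summed in each library. The 9 erythroblast markers, mainly globin genes whose table entries share reads, summed to 46.5 to 164 CPM in adult and 1790 to 2031 in fetal HSC, and to 38.2 to 77.5 in adult and 243 to 741 in fetal LMPP. The 10 macrophage markers summed to 6.87 to 25.3 CPM in adult and 9.16 to 11.1 in fetal HSC, and to 7.87 to 14.6 in adult and 2.81 to 7.05 in fetal LMPP. Those of plasmacytoid dendritic cells, known as strong interferon producers, summed to 0.618 to 4.12 CPM in HSC, 24.1 to 35.0 in adult LMPP and 69.3 to 105 in fetal LMPP. Siglech, the defining one, was at 0 in all HSC libraries and at 3.44 to 7.22 CPM in fetal LMPP. Most of the fetal LMPP sum was Ccr9, at 63.5 CPM on average against 13.2 in adult LMPP. Cox6a2 averaged 14.6 CPM in fetal and 12.8 in adult LMPP, Pacsin1 4.93 and 3.15, and Klk1 and Klra17 were at 0 in all libraries. Hepatocyte markers summed to 10.6 to 20.2 CPM in adult and 7.35 to 55.5 in fetal HSC, and to 10.7 to 14.4 in adult and 10.8 to 54.9 in fetal LMPP, with Alb at 0 in all adult libraries. Endothelial and stromal markers summed to 26.9 to 65.7 CPM in adult and 97.4 to 124 in fetal HSC. Most of the fetal HSC sum was Pecam1, at 75.9 CPM on average against 34.6 in adult HSC. Plvap averaged 19.5 CPM in fetal and 0.846 in adult HSC, and Cdh5 3.80 and 0.0108. The stromal genes Pdgfrb and Col1a1 went the other way, at 0.706 and 4.75 CPM and at 0.0122 and 0.121. Neutrophil markers summed to 0.455 to 1.61 CPM in adult and 6.87 to 29.4 in fetal LMPP. Of 9 lists for other cells, the ages were apart in 2 in HSC (erythroblast, and endothelial and stromal) and in 4 in LMPP (erythroblast, plasmacytoid dendritic, neutrophil and macrophage, of which the macrophage sum alone was lower in fetal cells). Itgam, which encodes CD11b, the antigen excluded by the adult gates, read 4.41, 2.44 and 2.31 CPM in adult HSC and 29.6 and 37.1 in fetal HSC (3.45 ± 0.41, adjusted p = 0.000973). Adult and fetal LMPP overlapped for it, at means of 27.6 and 35.1 CPM. The part of these cells in the member differences was not tested.

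Chromatin at the starts of the members was read from the 4 peak lists, with a peak counted within 1000 bases of the start. The lists held 53068 distinct peaks in adult HSC, 48286 in fetal HSC, 50579 in adult LMPP and 37156 in fetal LMPP. With 1 list per group there is no spread between replicates and no test. A peak lay at the start of 41 members in adult HSC (83.3% of all genes), 36 in fetal HSC (81.7%), 41 in adult LMPP (80.5%) and 34 in fetal LMPP (76.4%). Most member starts, 36 in HSC and 33 in LMPP, were open in both the adult and the fetal list.

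In HSC, 5 members had a start peak in the adult list and not in the fetal list (3.94% of all genes), namely Ifi27, Ifi44, Ifitm3, Oasl2 and Zbp1, and none had the reverse (2.33% of all genes). In LMPP, 8 members did so (6.64% of all genes), namely Ddx58, Dhx58, Gbp6, Ifi44, Ifitm2, Lgals3bp, Psmb8 and Sp100, and Oasl2 had the reverse (2.5% of all genes). RNA of 4 of the 5 in HSC was called lower in fetal cells, where 9.81% of all genes with such a start were. In LMPP it was 7 of the 8, where 19.0% of all such genes were. Members open in both lists were called lower in 9 of 36 cases in HSC (2.5% of all genes open in both) and 15 of 33 in LMPP (7.07%). A lower RNA level thus occurred both with and without a missing peak.

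Ifi44 was the 1 member with a start peak in both adult lists and in neither fetal list. Its adult HSC peak lay at chr3:151749772-151750128 and its adult LMPP peak at chr3:151749431-151750092, with −log10 q values of 34.1 and 27.0 as the authors' caller gave them. From 10000 bases before its start to its end, each adult list held 3 peaks and each fetal list 0. Zbp1 had a start peak at chr2:173218367-173219395 in adult HSC (−log10 q of 50.4) and none in fetal HSC. Both LMPP lists held a Zbp1 start peak, with −log10 q of 119 in adult and 8.82 in fetal LMPP. These stood at percentiles 85.0 and 7.09 of their lists. Ifi27 was alike, with an adult HSC peak at chr12:103433947-103434883 (−log10 q of 88.2) and none in fetal HSC. Its start peaks in adult and fetal LMPP had −log10 q of 204 and 17.6, at percentiles 93.9 and 34.4 of their lists. Psmb9, in contrast, had a start peak in all 4 lists, although its RNA was lower in fetal cells of both types. The peaks at the Irf1 and Igtp starts in all 4 lists spanned the 120 bases printed above.

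**Figure D5:**
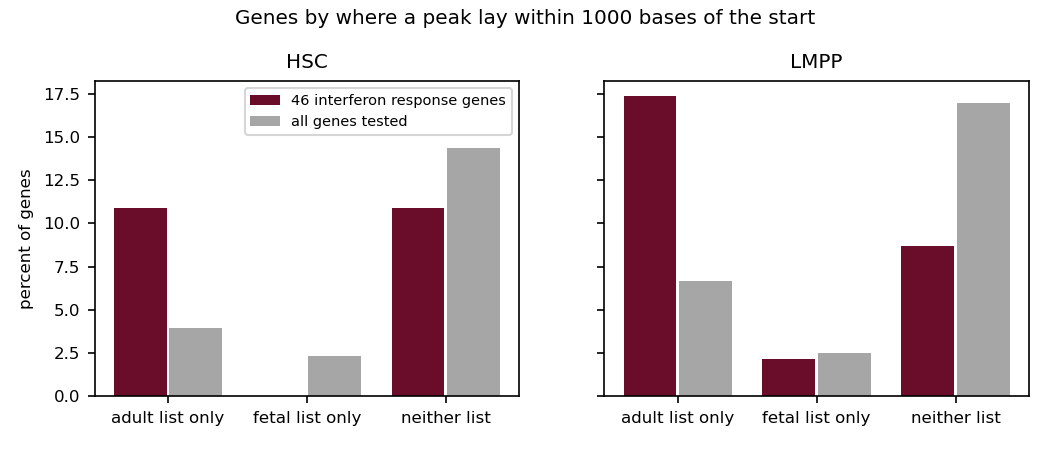
Bars give the percent of genes with a peak within 1000 bases of the start in the adult list only, the fetal list only or neither, for the 46 members (dark red) and all 14736 tested genes (grey), in HSC and LMPP. The adult-only bar of the members stands at 10.9% in HSC and 17.4% in LMPP, next to 3.94% and 6.64% of all genes.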

How the data were processed

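RNA of sorted mouse HSC and LMPP was made into cDNA with SMART-Seq v4 and tagmented with Nextera XT, per the labels' protocols. The authors deposited expected counts of reads in exons per gene; the file headers give HOMER, mm10 and raw output. The submitters' processing notes list, without roles, the builds GRCm38.p5, mm10 and NCBIM37 and the tools MACS2, SAMtools 1.9, Picard, Bowtie2 2.3.5, DESeq2, HOMER, RSEM, STAR and Trim Galore. Of the values, 22.5% were not whole and were rounded. Each deposited peak list is 1 per group and gives each peak a score, a fold enrichment (signal value) and a −log10 q from the authors' caller; lines of the same peak were merged.

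Counts were fitted in edgeR 4.0.16 (R 4.3.3) by quasi-likelihood, with filterByExpr, TMM scaling and a means model of the 4 groups over 11 libraries. The common biological coefficient of variation was 0.372, with 3.45 prior degrees of freedom. CPM are TMM-scaled, and SE is the log2 difference divided by the square root of F. DESeq2 1.42.0, other filters, size factors, single groups, a replicate block and left-out libraries were alternatives, and 3 libraries were left out together, or given a term, after seeing the data. The labels do not state that replicate numbers pair libraries. Deviations from the group mean correlated at 0.155, 0.307 and 0.472 in the 3 same-numbered pairs of adult HSC and adult LMPP. Some pairs with different numbers correlated as well, at 0.214 for adult HSC 1 with adult LMPP 2 and 0.289 for adult HSC 3 with fetal LMPP 1. Scripts were tested on simulated data. Ratios used 0.5 added counts and an exact permutation test (scipy 1.17.1). No column belonged to other samples (0).

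The members and all lists were chosen with earlier results of these data known. Genes named with all library values were those called lower in both cell types and the highest of each role per kilobase; Irf7, Isg15 and other genes were chosen after their values were seen. RefSeq promoters came from GRCm38.p6, and 10 members had none in that table.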

Additional observations from a re-analysis of the deposited data

How the results depend on the processing

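The 65 called member results were recomputed under 1235 alternative values; none changed direction and 185 lost the call. Counts of members called moved as follows. Fetal against adult HSC gave 14 lower in the reported fit, 8 when only these groups were fitted, 8 with the replicate block, and 4 to 15 when single libraries were left out, with 5 without fetal HSC 1 and 4 without fetal HSC 2. Fetal against adult LMPP gave 25 lower, and 19 to 35 without single libraries; 1 was higher by DESeq2, without the 3 libraries that stand apart, or with a term for them, and 0 to 1 without single libraries. In adult marrow, LMPP against HSC gave 6 lower, 11 with that term and 3 to 8 without single libraries. It gave 5 higher, 3 with no filter, 2 with only these groups, 3 with the replicate block, and 1 to 7 without single libraries. In fetal liver it gave 12 lower, 19 by DESeq2, 25 without the 3 libraries, 21 with the term and 4 to 19 without single libraries. It gave 3 higher, 6 by DESeq2, 6 with only these groups, 6 without the 3 libraries, 7 with the term and 1 to 4 without single libraries. The interaction gave 0 lower, 3 by DESeq2, 6 without the 3 libraries and 4 with the term. The causes were not tested. Of 15 same-numbered pairs of libraries, with deviations correlated at −0.206 to 0.472, the 3 over 0.1 were the pairs of adult HSC and adult LMPP. Pairs with different numbers also exceeded 0.1, up to 0.289 for adult HSC 3 with fetal LMPP 1, so a pairing by number is not established. The block lost 3 calls in adult marrow, given in the report, and 7 of 11 libraries correlated best with their own number. With only peaks above the median q of their list, 27 members had a start peak in adult LMPP and 21 in fetal LMPP, 3 were adult-only and 2 fetal-only in HSC, and 0 were fetal-only in LMPP; a window of 2500 bases gave 2 there. In the 150 bases before the start, 11 members held the ISRE core and 5 the GAS core. Size factors moved the median of all genes by at most 0.01. Fetal HSC had only 2 libraries, which limits its calls, and depth limits Gbp6 and Zbp1 in fetal cells.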
